A study of Saccharomyces cerevisiae with 46 samples.

Results

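RNA levels were compared between budding yeast cells from which Spt5 had been withdrawn from the nucleus (Spt5-AA, 2 libraries) and cells given the solvent DMSO (2 libraries). The table holds 4835 protein-coding genes, and the analysis covered the 4673 whose average across the 4 libraries reached 10 normalized counts. The Spt5-AA libraries entered this average, so the choice was not independent of the change. A gene low in DMSO could pass through its rise, as *TMA10* and *HUG1* did, and a gene that fell could drop out. The other 162 lay below this level and were not tested. YPL185W was the gene just inside it, with 12.45 and 6.78 normalized counts in the DMSO libraries and 15.3 and 5.51 in the Spt5-AA libraries. *FPR1*, which is deleted in these strains, was the gene just outside it. It had 13.8 and 19.0 normalized counts in the DMSO libraries and 0.848 and 6.12 in the Spt5-AA libraries. These are 4 of the 46 samples described for the study. All 4 libraries came from strains with the genotype BY4741 tor1-1, *fpr1Δ*, RPL13-2xFKBP12 and RPB3-3xFLAG, grown in rich medium (YPD) at 30 °C. The Spt5-AA libraries came from the SPT5-FRB-eGFP strain after 180 min of rapamycin, given as 1mg/ml final in DMSO. Of the DMSO libraries, replicate 1 came from the SPT4-FRB-eGFP strain and replicate 2 from the SPT5-FRB-eGFP strain, each after 120 min of DMSO. Rapamycin, its duration and, for replicate 1, the tagged strain therefore differ together and cannot be told apart, and no rapamycin-treated library without an FRB tag was analysed here. The labels do not say whether libraries of a group came from separate cultures, so that the tests measure the spread between these libraries, which may be technical.

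Spt5 and its small partner Spt4 form the complex called DSIF in other species, which binds RNAPII soon after initiation and stays with it along the gene. Spt5 belongs to a family of transcription factors found in bacteria, archaea and eukaryotes alike, and yeast cannot live without it. In the anchor-away system, rapamycin bridges an FRB tag on the target protein to FKBP12 on a ribosomal protein, and the export of ribosomal subunits then carries the target out of the nucleus. The *tor1-1* allele makes growth resistant to rapamycin, and loss of *FPR1*, which encodes the main cellular binder of the drug, frees it for the tag. After transcription slows, an mRNA is left at a level set by both its remaining synthesis and its decay, and these were not separated here.

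Between 798455 and 2082274 reads per library fell on these genes. The Spt5-AA libraries had 798455 and 1138341 reads, and the DMSO libraries had 1866670 and 2082274. One read was worth 0.848 and 0.612 normalized counts in Spt5-AA and 1.38 and 1.36 in DMSO, so that 3 reads, the limit that a count of 0 allows, corresponded to at most 4.15 normalized counts. Fission yeast cells had been mixed in before lysis, but their reads were not analysed here. Values are given below as deposited, where libraries may differ in their total, and also relative to the median gene, where each library was rescaled so that its median ratio to the mean library was equal. Fewer cells and less RNA per cell cannot be told apart in such bulk samples.

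On the deposited scale, the withdrawal of Spt5 went with a broad fall of mRNA. The size of this fall rests on the factors by which the authors scaled the libraries, and how these were set is not given. The median gene changed by -1.84 on the log2 scale (log2 of the normalized count plus 1), or 3.57-fold lower, with -1.92 in Spt5-AA replicate 1 and -1.76 in replicate 2. On the deposited scale 4240 genes (90.7% of those tested) fell and 111 genes (2.38%) rose at an adjusted p under 0.05 from limma with Benjamini-Hochberg adjustment, and 322 passed in neither direction. The fall was uneven, with quartiles at -2.40 and -1.29. Both DMSO libraries differed far less from each other, with a median difference of 0.09 and an interquartile range of 0.30. The 2 Spt5-AA libraries differed by a median of 0.13 with an interquartile range of 0.45. Relative to the median gene, 1233 genes (26.4%) were higher and 1281 (27.4%) were lower. When libraries were set to equal totals instead, the median gene stood at 0.11 and 1382 of 2501 called genes were higher. The overall fall, and the direction of a gene near the median, therefore depend on the scaling.

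**Figure D1:**
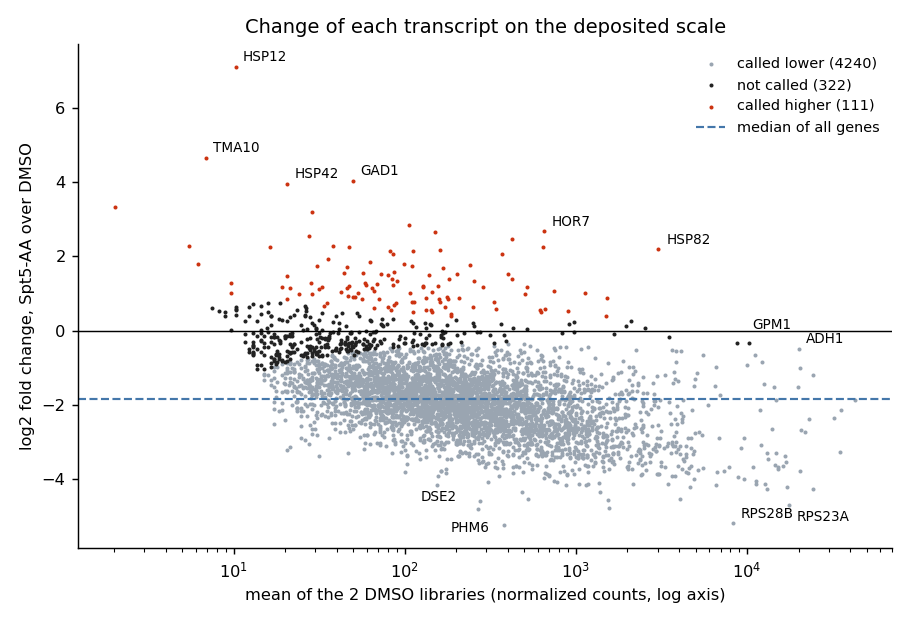
Each point is 1 of 4673 genes, with its mean in the 2 DMSO libraries on a log axis in normalized counts and its log2 fold change of Spt5-AA over DMSO on the deposited scale. Most genes sit around the dashed median at -1.84, while 111 genes in red were called higher, with *HSP12* at 7.11.

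Transcripts that rose despite this general fall were led by stress genes. *HSP12*, which encodes a small membrane-protecting protein made in stress and stationary phase, had 8.30 and 12.2 normalized counts in the DMSO libraries and 1380 and 1696 in Spt5-AA. This was the largest change of any gene tested, at 7.11 on the log2 scale (standard error 0.199, adjusted p = 1.20e-21 from limma). *TMA10*, a stress-induced protein that associates with ribosomes, had 8.30 and 5.42 in DMSO and 156 and 244 in Spt5-AA. In *GAD1*, which encodes glutamate decarboxylase, the levels were 51.2 and 48.8 against 848 and 835. The small heat-shock protein gene *HSP42* had 22.1 and 19.0 in DMSO and 350.4 and 319 in Spt5-AA. All of these groups lay far apart, where the choice of the genes required no overlap. No call among the 10 largest rises was turned or lost in any alternative in which the gene was tested.

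The other 6 of these 10 rises reached from 2.46 to 3.21 on the log2 scale. *GLC3*, the glycogen branching enzyme, had 18.0 and 39.3 normalized counts in DMSO and 248 and 263 in Spt5-AA. *STF2*, which helps cells to survive drying, had 84.4 and 126 against 856 and 662. The glucokinase gene *GLK1* had 119 and 182 against 966 and 902, and it overlaps the dubious reading frame YCL042W. *HOR7* was already abundant in DMSO (678 and 630) and had the highest level of the 10 in Spt5-AA, at 4204 and 4212. *DAL3*, an enzyme of allantoin breakdown, had 27.7 and 27.1 against 171 and 157. *SER3*, the first enzyme of serine synthesis, had 426 and 416 against 2165 and 2501. Its reading frame overlaps an annotated non-coding RNA, known as SRG1, whose transcription is known to repress it, so that reads of the pair may not be told apart.

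All 10 of these genes hold the stress response element AGGGG, the site of the activators Msn2 and Msn4, on either strand within 500 bases before the start codon. It was found in 33.7% of the 4602 tested genes with such a window, in 71.8% of the 110 risen genes with one, and 6 of the 10 hold it more than once. The motifs were chosen after the values were seen and a match is not a site of binding. The sites closest to the start codon of 5 of them are shown from the R64 assembly, 5′ to 3′ on the coding strand of the gene, with the element in capitals (CCCCT where it lies on the other strand). They lie at chrVI:107056-107080 for *HSP12*, chrIV:806429-806453 for *HSP42*, chrV:132897-132921 for *GLC3*, chrVII:508539-508563 on the minus strand for *STF2* and chrXIII:774491-774515 for *HOR7*.
HSP12: tccggtcgtcCCCCTcttgatctga
HSP42: ccttggcggcAGGGGggaggcctct
GLC3: gctttgtccaAGGGGctgttgcaac
STF2: cttcgaaaacAGGGGgctgcgagcg
HOR7: tttgggtaagCCCCTttctgttttc

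Of the 24 genes known to be induced by Msn2 and Msn4 that were tested, 21 rose on the deposited scale, against 2.38% of all genes, 2 fell and 1 did not pass the test. The members of the list were chosen with earlier results of these data known, so these counts are no independent test. Their median was 1.34 on the log2 scale, beside -1.84 for all genes. Relative to the median gene all 24 were higher, with a median of 3.19. The 2 reserve carbohydrates of yeast, trehalose and glycogen, were well represented. *TSL1*, *TPS2* and *TPS1* of the trehalose synthase complex rose by 1.59, 0.69 and 0.58 on the log2 scale, the trehalase gene *NTH1* by 1.68 and the glycogen synthase gene *GSY2* by 1.38. *TPS3*, a further subunit of that complex, fell by 0.87 but stayed 1.01 above the median gene.

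Chaperone genes split into those that rose and those that fell. Of 28 tested, 9 rose and 19 fell on the deposited scale (2.38% and 90.7% of all genes), with a median of -0.85. The counts were 22 higher and 2 lower relative to the median gene, against 26.4% and 27.4% of all genes. *HSP82*, the stress-induced form of Hsp90, had 2761 and 3241 normalized counts in DMSO and 15322 and 12295 in Spt5-AA. Its constitutive copy *HSC82* had 19778 and 20854 in DMSO and fell to 10653 and 9444. The sequences of this pair are near-identical, so that counting may have split their reads. *HSP104*, which dissolves protein aggregates, had 631 and 651 in DMSO and 3064 and 3062 in Spt5-AA. The ribosome-bound chaperone gene *SSB2* went the other way, from 1436 and 1442 to 196 and 204, which was also 0.97 below the median gene on the log2 scale. The polyubiquitin gene *UBI4*, whose product feeds the proteasome, had 376 and 367 in DMSO and 1552 and 1545 in Spt5-AA. It was the only gene of the proteasome list of 33 to rise, and relative to the median gene 15 of the list were higher and 1 lower.

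The risen genes were not all stress genes by these lists, since 49 of the 111 were in any list and 62 in none. Among the latter, chosen after their values were seen, was *PRB1*, a vacuolar protease, with 76.1 and 93.5 normalized counts in DMSO and 327 and 392 in Spt5-AA. *BIO2*, the biotin synthase, had 425 and 422 against 1148 and 1081. *HUG1*, an inhibitor of ribonucleotide reductase made after DNA damage, had 0 and 3 reads in DMSO, at or under the count that 0 allows, and 19.5 and 23.9 normalized counts in Spt5-AA. The change was small for the last of the 111, *SSA1*, at 0.38 on the log2 scale, with 1401 and 1598 in DMSO and 1952 and 1954 in Spt5-AA.

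**Figure D2:**
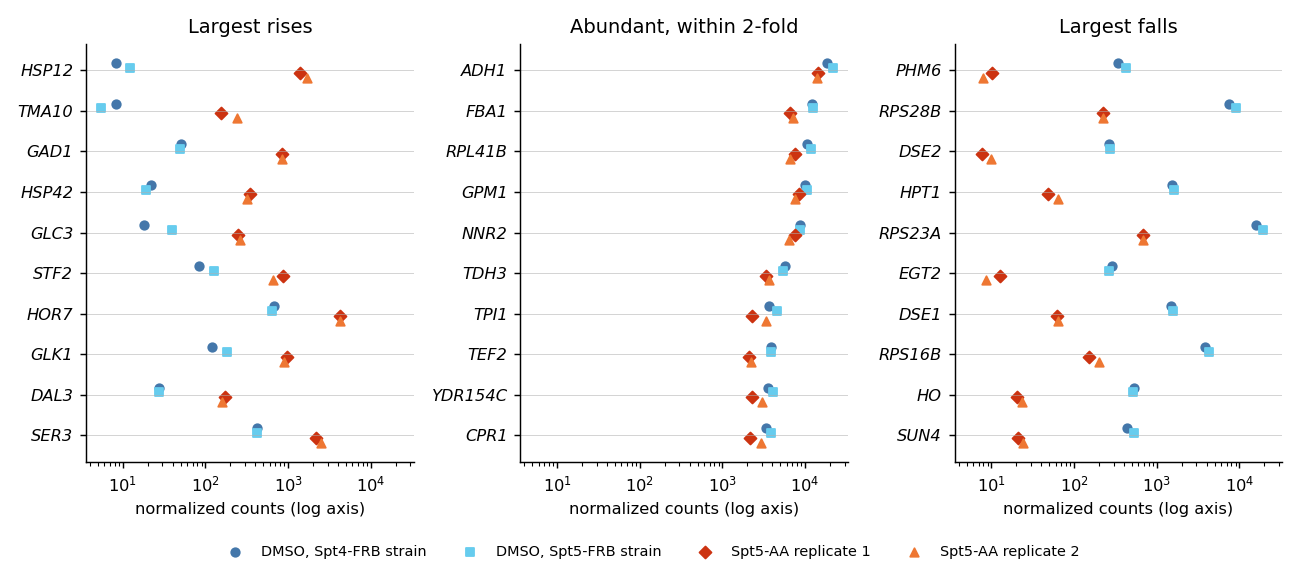
Normalized counts of single libraries on a log axis for the 10 genes with the largest rises, the 10 most abundant genes within 2-fold of DMSO, and the 10 with the largest falls. The 2 DMSO libraries are blue and the 2 Spt5-AA libraries are red and orange. Genes of the first and last groups were chosen to have no overlap between DMSO and Spt5-AA. Of all 4673 genes, 146 were higher and 4378 lower without overlap. *HSP12* rose from 8.30 and 12.2 to 1380 and 1696.

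A further group of transcripts persisted. In 537 genes (11.5% of those tested) both Spt5-AA libraries lay within 2-fold of the DMSO mean as deposited, of which 29 rose, 221 fell and 287 did not pass the test. This group was set by these same values and so carries no test. Of its 10 most abundant members, 5 were in the glycolysis and fermentation list. *ADH1*, the alcohol dehydrogenase of fermentation, had 18159 and 21906 normalized counts in DMSO and 14368 and 14061 in Spt5-AA. It fell by 0.49 on the log2 scale (adjusted p = 0.0220 from limma), but its adjusted p was 0.166 without DMSO replicate 2, and 0.0519 and 0.0614 without either Spt5-AA library. *GPM1*, phosphoglycerate mutase, had 9985 and 10492 against 8533 and 7581. For the aldolase gene *FBA1* the levels were 12015 and 12595 against 6523 and 7108, and for the triose phosphate isomerase gene *TPI1* 3695 and 4517 against 2279 and 3397. In *TPI1* the call was lost without Spt5-AA replicate 1 (adjusted p = 0.191 from limma) or without DMSO replicate 2 (0.0653). *TDH3*, a glyceraldehyde phosphate dehydrogenase with close paralogs, had 5654 and 5371 against 3353 and 3654.

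Other abundant transcripts of this group had different roles. *CPR1*, a cyclophilin, had 3381 and 3900 normalized counts in DMSO and 2183 and 2900 in Spt5-AA. The reading frame YDR154C, which is not in the annotation used here, had nearly the same values in each library (3547 and 4102 against 2279 and 3013). Without Spt5-AA replicate 1 the calls of both were lost, with adjusted p = 0.104 and 0.0902 from limma. *NNR2*, which repairs damaged NADPH and NADH, is the neighbour of *GPM1* on chromosome XI (164917 to 165930, against 163642 to 164385 for *GPM1*) on the same strand. Its levels of 8701 and 8723 in DMSO and 7530 and 6454 in Spt5-AA were close to those of *GPM1*, and whether reads of the pair were shared was not tested. *RPL41B*, which encodes the smallest ribosomal protein, had 10520 and 11803 against 7532 and 6500, and its near-identical copy *RPL41A* 18095 and 21453 against 7474 and 6288. *TEF2* and *TEF1* encode the same elongation factor of translation and differed likewise, at -0.85 and -1.48 on the log2 scale. Counting may have split the reads of both pairs, which was not tested.

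The whole glycolysis and fermentation list had 20 tested genes, of which 2 rose, 15 fell and 3 did not pass the test on the deposited scale, where 2.38% of all genes rose and 90.7% fell. Both Spt5-AA libraries were within 2-fold of DMSO in 8 of the 20. Relative to the median gene 15 were higher and 3 lower, against 26.4% and 27.4% of all genes, with a median of 0.99. *PDC1*, the main pyruvate decarboxylase and the most abundant of the list, had 24599 and 24012 normalized counts in DMSO and 11133 and 10209 in Spt5-AA. *PDC5*, its back-up copy, rose from 42.9 and 51.5 to 234 and 222. At the other end *ADH3*, the mitochondrial alcohol dehydrogenase, had 1289 and 1699 in DMSO and 193 and 223 in Spt5-AA. Histone mRNAs lack poly(A) tails in animals but carry them in yeast. Of 11 tested, 10 fell on the deposited scale (median -1.25), 3 had both Spt5-AA libraries within 2-fold of DMSO, and 7 were higher and 1 lower relative to the median gene. *HHT2* had 3480 and 3500 in DMSO and 2775 and 3396 in Spt5-AA, while *HTZ1*, the H2A.Z variant, fell from 129 and 118 to 17.0 and 13.5.

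Ribosomal protein mRNAs fell furthest as a group. All 134 tested genes fell on the deposited scale, as did 90.7% of all genes, with a median of -3.34 on the log2 scale. Relative to the median gene, 123 were lower and 1 was higher, against 27.4% and 26.4% of all genes, with a median of -1.47. *RPS28B* had 7540 and 8997 normalized counts in DMSO and 222 and 226 in Spt5-AA, a change of -5.19 (standard error 0.153, adjusted p = 2.48e-21 from limma). *RPS23A* had 16081 and 19241 against 684 and 676. *RPS16B* had 3786 and 4338 against 150.2 and 200 normalized counts. *RPL10*, the most abundant of the list, stood apart from these with 40343 and 45680 against 12967 and 10511. Its change relative to the median gene was 0.0024, and it turned sign under some alternatives without passing the test in any.

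Most ribosomal proteins of yeast are encoded by 2 near-identical genes, and counting may have split their reads. Over 57 such pairs, the copies differed by a median of 0.59 on the log2 scale, and 12 pairs differed by more than 1. The widest gap was between *RPS28A* at -0.50 and *RPS28B* at -3.32 relative to the median gene. In *RPL9A* and *RPL9B* the values were -2.17 and 0.04.

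Genes for making and using ribosomes were lower too, with smaller changes. All 95 tested genes of ribosome biogenesis fell on the deposited scale, as did 90.7% of all genes (median -2.64). With the median gene as reference 69 were lower and 1 higher, against 27.4% and 26.4% of all genes (median -0.77). *CBF5*, the pseudouridine synthase of ribosomal RNA, had 4089 and 4934 normalized counts in DMSO and 350 and 280.3 in Spt5-AA. The helicase gene *SPB4*, the one that stood higher than the median gene, had 242 and 247 against 149 and 133. Of 37 translation factors 36 fell, and 22 were lower and 3 higher relative to the median gene (median -0.51). *RLI1*, which recycles ribosomes, had 721 and 664 against 42.4 and 47.7. *YEF3*, a fungal elongation factor and the most abundant of the list, had 30386 and 33819 against 6659 and 5818.

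**Figure D3:**
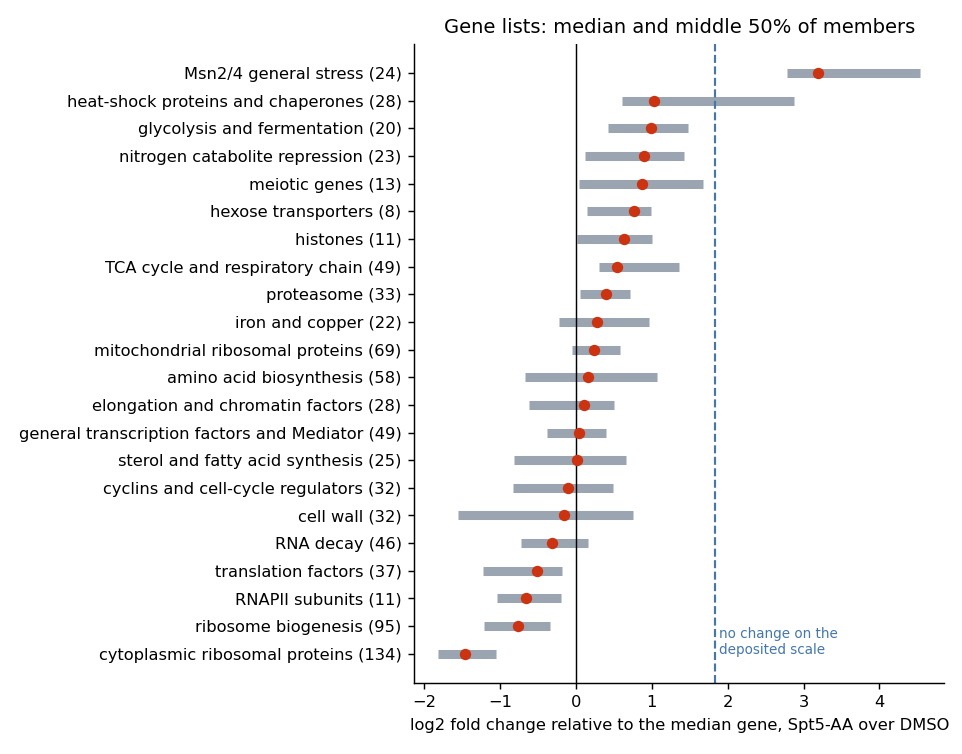
Each row is a gene list with its number of tested members, the red point is the median log2 fold change of Spt5-AA over DMSO relative to the median gene, and the bar spans the quartiles of the members. The lists run from -1.47 for cytoplasmic ribosomal proteins to 3.19 for genes of Msn2 and Msn4, and a point right of the dashed line at 1.84 is a median above 0 as deposited.

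The transcripts with the deepest falls included genes that are used once per cell cycle in daughter cells. *PHM6*, a protein of unknown function induced by phosphate starvation, had 338 and 426 normalized counts in DMSO and 10.2 and 7.96 in Spt5-AA (12 and 13 reads), the largest fall of any gene, at -5.25 on the log2 scale. *DSE2*, a daughter-specific wall protein, had 263 and 272 against 7.64 and 9.79. *DSE1*, which acts in separating the daughter, had 1488 and 1575 against 62.8 and 64.3. *EGT2*, needed for timely separation of mother and daughter, had 286 and 264 against 12.7 and 8.57. In each of these the DMSO and Spt5-AA libraries lay far apart, where the choice of the genes required no overlap. *SUN4*, a wall protein of septation, had 443 and 527 against 21.2 and 23.9. *HO*, the endonuclease of mating-type switching, which laboratory strains carry as an inactive allele, had 533 and 518 against 20.4 and 23.3. *HPT1*, which salvages hypoxanthine and guanine, had 1524 and 1598 against 48.4 and 63.0.

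A few other genes of daughter cells and of septum cutting were looked up after these values were seen. *CTS1*, the chitinase that cuts the septum, had 600.4 and 704 normalized counts in DMSO and 37.3 and 43.5 in Spt5-AA. *SCW11*, a wall glucanase, had 356 and 359 against 27.2 and 19.0. *AMN1*, which switches off mitotic exit in daughters, had 979 and 1106 against 59.4 and 56.9. *DSE4* had 591 and 763 against 46.7 and 42.8, and *DSE3* had 159 and 167 against 6.79 and 17.1. These genes also fell relative to the median gene, by between 1.98 and 2.27 on the log2 scale. *ASH1*, another daughter-specific gene, had 108 and 106 against 12.7 and 19.0 and stood 0.88 below the median gene. Of the 48 genes that were called at least 4-fold lower than the median gene, 23 encode ribosomal proteins.

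The make-up of the mRNA reads does not depend on any scaling between libraries. Shares are of the reads that fell on the 4835 genes, since other reads of a library were not analysed. Ribosomal protein genes took 25.5% and 25.3% of these reads in the DMSO libraries and 12.9% and 12.5% in Spt5-AA. Glycolysis and fermentation went the other way, from 4.47% and 4.46% to 9.66% and 9.43%. Chaperone genes took 1.81% and 1.79% in DMSO and 6.41% and 5.96% in Spt5-AA. The Msn2 and Msn4 genes took 0.116% and 0.120% in DMSO and 1.90% and 1.87% in Spt5-AA. In each of these lists the 2 groups lay apart by many times the gap within a group. The Wilson 95% intervals of all such shares were within 0.0735 percentage points on either side and cover counting error only, since reads amplified by PCR are not independent molecules.

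**Figure D4:**
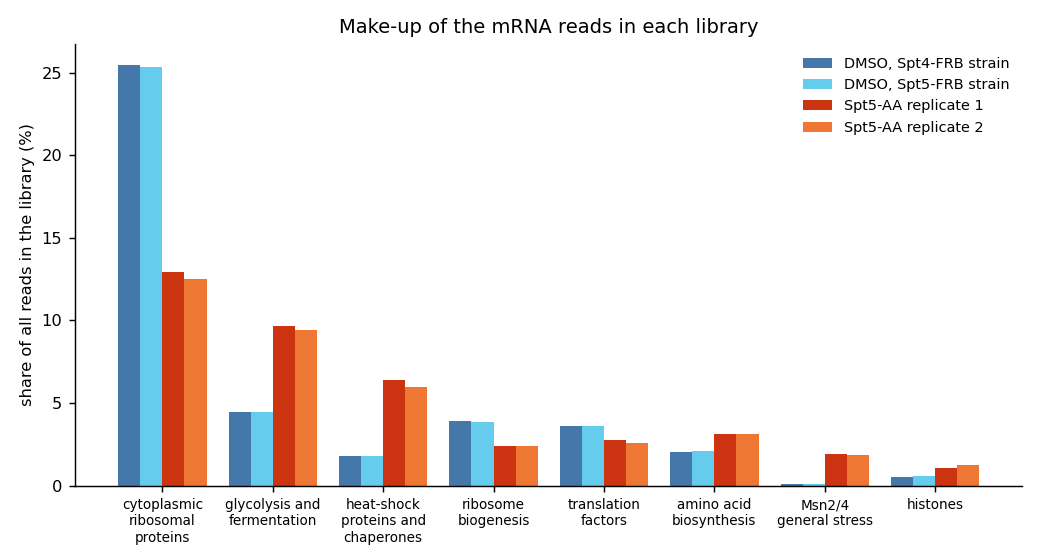
Bars give the share, in %, of a library's reads on the 4835 genes that fell on each of 8 lists. The 2 DMSO libraries are blue and the 2 Spt5-AA libraries are red and orange. The share of ribosomal protein genes went from 25.5% and 25.3% to 12.9% and 12.5%, and that of chaperone genes from 1.81% and 1.79% to 6.41% and 5.96%.

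Genes of the transcription machinery itself fell, as did 90.7% of all genes, and the counts relative to the median gene in these lists stand beside 26.4% higher and 27.4% lower among all genes. All 11 tested RNAPII subunit genes fell on the deposited scale (median -2.50), and 7 were lower and none higher relative to the median gene. *RPB4*, a subunit of the RNAPII stalk, had 899 and 1066 normalized counts in DMSO and 79.8 and 85.7 in Spt5-AA. The second-largest subunit gene *RPB2* had 2859 and 2852 against 734 and 696, and lay near the median gene at -0.12. All 28 tested genes of elongation and chromatin factors fell as deposited, and relative to the median gene 10 were higher and 9 lower. *CHD1*, a chromatin remodeller that travels with RNAPII, had 473 and 554 against 238 and 273, a change of 0.87 relative to the median gene. *SET2*, the histone H3 lysine methyltransferase bound to elongating RNAPII, had 640 and 733 against 84.8 and 86.9, or -1.11 relative to the median gene. *SPT4*, the partner of Spt5, had 290.5 and 418 against 43.3 and 47.1 and was 1.06 lower than the median gene. The value of 290.5 comes from the strain in which *SPT4* itself carries the FRB tag, and an effect of the tag was not tested. Among 49 general transcription factor and Mediator genes, 48 fell, and 11 were higher and 11 lower relative to the median gene, which is near the shares of all genes. Of 46 RNA decay genes 45 fell, and 20 were lower and 4 higher relative to the median gene, where *LSM2*, a subunit of the decapping activator, had the lowest value (362 and 438 against 38.2 and 36.1).

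Nuclear genes for respiration had a median above that of all genes. Of 49 tested TCA cycle and respiratory chain genes 3 rose and 37 fell, beside 2.38% and 90.7% of all genes. In all, 30 were higher and 3 lower relative to the median gene, against 26.4% and 27.4% of all genes (median 0.55). The citrate synthase gene *CIT1* had 173 and 232 normalized counts in DMSO and 558 and 603 in Spt5-AA, and the aconitase gene *ACO1* rose from 748 and 744 to 1459 and 1679. Of 69 mitochondrial ribosomal protein genes none rose and 64 fell, and 20 were higher and 5 lower relative to the median gene (median 0.24), so that the shares that fell or were higher were near those of all genes. The median of the cytoplasmic ribosomal proteins was -1.47 on the same scale. *RSM26* was the lowest of the called genes, with 199 and 233 against 11.03 and 39.2, and its call was lost with DESeq2 (adjusted p = 0.169).

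Rapamycin inhibits TORC1 in cells with normal TOR1 and thereby turns on genes of poor nitrogen supply. The strains carry *tor1-1*, and a part of the drug itself in these values cannot be told apart from that of Spt5. Of 23 tested genes of nitrogen catabolite repression 1 rose, *DAL3*, and 16 fell, where 2.38% of all genes rose and 90.7% fell. Set against the median gene 14 were higher and 4 lower, beside 26.4% and 27.4% of all genes (median 0.90). *GLN1*, glutamine synthetase, had 1071 and 1284 normalized counts in DMSO and 865 and 868 in Spt5-AA. The ammonium permease gene *MEP3* fell furthest, from 437 and 461 to 26.3 and 46.5. Of 58 amino acid synthesis genes 6 rose and 49 fell, and relative to the median gene they split into 24 higher and 21 lower. *LYS1*, the last enzyme of lysine synthesis, rose from 29.0 and 47.4 to 173 and 194, while *HIS1*, the first of histidine synthesis, fell from 2514 and 2593 to 183 and 194.

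Cell-cycle and wall genes held both rises and falls, as did further lists, and their counts stand beside the 2.38% of all genes that rose and the 90.7% that fell. Of 32 cyclins and cell-cycle regulators 1 rose and 29 fell, close to these shares, and 8 were higher and 13 lower relative to the median gene, against 26.4% and 27.4% of all genes. The G1 cyclin gene *PCL1* had 120 and 106 normalized counts in DMSO and 204 and 183 in Spt5-AA. The mitotic cyclin gene *CLB1* had 599 and 800 against 39.0 and 53.9. Among 32 wall genes 2 rose and 26 fell, with the mannoprotein gene *CWP2* rising from 508 and 523 to 1065 and 1294. Of 25 sterol and fatty acid genes 1 rose, *MVD1* of the mevalonate pathway (174 and 144 against 265 and 308), and 24 fell, with the fatty acid desaturase gene *OLE1* going from 1371 and 1549 to 115 and 97.3. Meiotic genes had 13 tested members, of which 2 rose and 6 fell. *MSC1* had 53.9 and 71.8 against 235 and 220.3. Of 8 hexose transporter and sensor genes none rose and 6 fell, with *HXT1*, the low-affinity glucose carrier, at 344 and 324 against 54.3 and 67.3. Of 22 iron and copper genes 1 rose and 18 fell. The rise, of the siderophore carrier gene *SIT1* (158 and 216 against 216 and 269), had an adjusted p of 0.491 without DMSO replicate 1, 0.231 without Spt5-AA replicate 2, both from limma, and 0.144 with DESeq2. The reductase gene *FRE1* went from 1134 and 1175 to 109 and 108.

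The fall was related to how abundant an mRNA is in other cells. Levels were taken from the WT RNA-seq libraries of the study, which were not used to form the change, as normalized counts per kb of coding length, and the 4602 tested genes with a length were split into 5 bins. Relative to the median gene the median change was 0.46 in the least abundant bin, then 0.14, -0.04 and -0.18, and -0.56 in the most abundant bin. Without ribosomal protein genes the last value was -0.41. A low gene that fell could drop out at the minimum, and the added count of 1 understates changes of low genes. How far the trend rests on these was not tested. Across genes, which are not independent replicates and share their libraries, Spearman's rho was -0.38 and Pearson's r on the log2 level -0.36. For coding length the bins ran from -0.05 to 0.04 with no order, with a rho of 0.03.

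**Figure D5:**
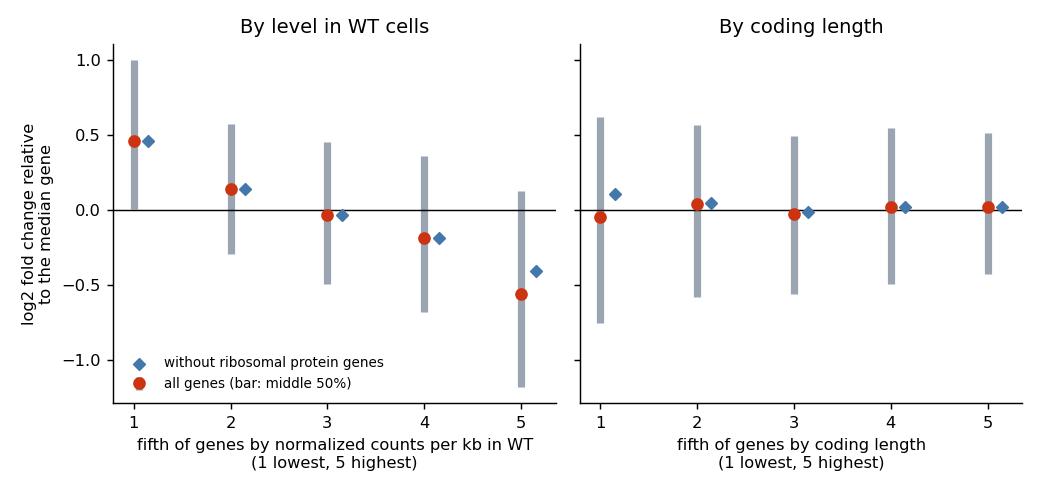
Median log2 fold change of Spt5-AA over DMSO relative to the median gene, with the quartiles as a bar, in 5 bins of genes by level in WT cells (left, normalized counts per kb) and by coding length (right). The median runs from 0.46 to -0.56 with the level and stays between -0.05 and 0.04 with the length, and blue diamonds leave out ribosomal protein genes.

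Genes with an intron, many of which encode ribosomal proteins, lay lower than the bulk. The 224 tested genes with more than 1 coding exon had a median of -0.79 relative to the median gene, with 134 lower and 25 higher, against 27.4% and 26.4% of all genes. Without ribosomal protein genes, 136 were left with a median of -0.22, of which 51 were lower and 25 higher. Within the ribosomal protein genes, the 88 with an intron had a median of -1.51 and the 46 without one -1.36.

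Further motifs, again chosen after the values were seen, were counted in the groups of genes on either strand within 500 bases before the start codon. TATAAA was held by 59.4% of all genes, 71.8% of risen and 64.7% of persistent genes. The Hsf1 core GAANNTTC was held by 19.6% of all genes and by a nearby share of risen genes, 21.8%. The element AGGGG described above was held by 51.0% of persistent genes and 12 of the 48 that fell furthest. The strings known from ribosome biogenesis genes, GATGAG and AAAATTTT, were held by 91.6% and 75.8% of the 95 genes of that list, and by 29.1% and 13.8% of all genes. A match says that the letters are in the window and no more.

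Markers of the strains were read in the same libraries. *FPR1*, deleted in all of them, had 13.8 and 19.0 normalized counts in DMSO and 0.848 and 6.12 in Spt5-AA, where the first is a single read, and was under the minimum for testing. *RPB3*, tagged in all strains, had 382 and 529 against 146 and 133, and its change relative to the median gene was 0.19. *RPL13A*, one of the genes for the ribosomal protein Rpl13 that serves as anchor, had 343 and 309 against 55.2 and 86.9. Of 5 tested genes used by MATa cells only 4 fell, beside 90.7% of all genes. One of these, the agglutinin gene *AGA2* (20.7 and 28.5 against 14.4 and 12.9), lost its call when any 1 library was left out (adjusted p from 0.0573 to 0.317 with limma), with a pseudocount of 0.1 (0.0512) and with DESeq2 (0.188). The pheromone gene *MFA1* had 234 and 293 in DMSO and 230 and 288 in Spt5-AA, and the receptor gene *STE2* had 1019 and 1068 against 313 and 258. The withdrawal acts on the Spt5 protein and cannot be read from mRNA. *TOR1* and *SPT5* were not analysed here as transcripts, nor were products of RNAPI, RNAPIII or mitochondria.

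Spt4-AA libraries (SPT4-FRB-eGFP strain, 140 min of rapamycin, 2 libraries) served to see where Spt5-AA differed. They share the DMSO libraries with Spt5-AA, their table was scaled separately, and strain and duration differ together, so that values as deposited are set side by side only. The direct comparison was made on the reads recovered from both tables with edgeR's quasi-likelihood test and TMM scaling, which is relative to the bulk of genes. It called 798 genes (17.1%) higher and 887 (19.0%) lower in Spt5-AA than in Spt4-AA, 1685 in all. The count was 961 without Spt5-AA replicate 1 and 840 without Spt5-AA replicate 2. *HSP12* had 1380 and 1696 normalized counts in Spt5-AA and 61.6 and 39.8 in Spt4-AA as deposited, and was 6.38 higher on the log2 scale in the direct comparison (adjusted p = 5.05e-08 from edgeR). *HOR7* had 4595 and 3144 in Spt4-AA, close to its level in Spt5-AA as deposited. On the deposited scale its change was 2.67 in Spt4-AA and 2.68 in Spt5-AA, while the direct comparison, where the bulk is set equal, put it 1.58 higher in Spt5-AA. In *RPS28B* the level was 2814 and 2848 in Spt4-AA against 222 and 226 in Spt5-AA, or 2.20 lower in the direct comparison.

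By list, 23 of 24 Msn2 and Msn4 genes were higher in Spt5-AA than in Spt4-AA, with a median difference of 2.04 on the log2 scale, beside 17.1% of all genes and a median of 0.01. Chaperone genes had 14 of 28 higher and none lower (median 0.63), and glycolysis and fermentation genes 14 of 20 higher and 1 lower (median 1.32). All lists were chosen with earlier results of these data known, so the counts are no independent test. The directions for chaperones and for glycolysis and fermentation hold where the bulk is set equal and turn as deposited. The deposited medians were 0.37 in Spt4-AA and -0.85 in Spt5-AA for chaperones, and -0.23 and -0.89 for glycolysis and fermentation. For the Msn2 and Msn4 genes the deposited medians were 1.11 and 1.34. Cytoplasmic ribosomal protein genes had 98 of 134 lower and 4 higher (median -0.95). In ribosome biogenesis, 22 of 95 were lower and 8 higher, a share near the 19.0% of all genes, with a median of -0.15. As deposited, the median of these 95 genes was -0.88 in Spt4-AA and -2.64 in Spt5-AA.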

How the data were processed

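RNA-seq was analysed in 4 libraries. Normalized counts, a signal in which the reads per gene of a library are divided by 1 factor, were deposited by the authors. How this factor was set, the counter, the annotation and whether counting used strand are not given in the sources used here. The submitters' processing notes name Trim Galore, TopHat, DESeq2 and the builds sacCer3, R64 and ASM294v2, with no roles. Total RNA was depleted of ribosomal RNA and made into directional libraries. The deposited tables of the authors' own DESeq2 comparisons hold fold changes and p-values and were not used, and 2 columns of other libraries were left out. Every value was a whole multiple (100%, within 0.001) of what 1 read is worth, so that reads were recovered, and the reads of the DMSO libraries were the same in the Spt4-AA and Spt5-AA tables at all 4835 genes. Reads on these genes ranged from 798455 to 2082274 per library, and intervals cover counting error only.

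The 4673 genes averaging 10 normalized counts or more were tested two-sided on log2(normalized count + 1) in limma (version 3.58.1, under R 4.3.3) with its intensity trend and adjusted together by the method of Benjamini and Hochberg, as deposited and after rescaling to equal median ratios. This understates changes of low genes. Calls were made below an adjusted p of 0.05. An exact permutation test of 2 against 2 libraries cannot go below a two-sided p of 0.333. Alternatives were a pseudocount of 0.1 or 10, no minimum or a minimum of 100, the same total, edgeR (version 4.0.16) and DESeq2 (version 1.42.0) on the recovered reads, and each library left out. The direct comparison with Spt4-AA used edgeR with TMM on recovered reads of the 6 libraries. On simulated counts for 4657 genes, 98% of 100 genes changed by 1.5 on the log2 scale were recovered. Of 97 genes changed by 3, 100% were recovered, with 13 false calls among 4460 unchanged genes, on either scale. The simulated counts held no overall fall, so they cannot show how the calls or the rescaling behave under the fall seen here.

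Gene positions, coding exons and lengths came from RefSeq's R64 annotation, in which 119 IDs were not found. Named are the 10 largest rises and the 10 largest falls among called genes averaging 50 or more in a group and no overlap between groups, the 10 most abundant genes whose Spt5-AA libraries both lay within 2-fold of the DMSO mean, and for each list the called genes with the highest and lowest change relative to the median gene and its most abundant member. Genes named outside this rule were chosen after their values were seen. Members, lists and this rule were chosen with earlier results of these data known. Figures were drawn with matplotlib (version 3.10.9), and other steps used numpy 2.4.6, scipy 1.17.1 and pandas 2.3.3 under Python 3.11.15. Some motif matches are not reported here.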

Additional observations from a re-analysis of the deposited data

Results flagged for a closer look

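Relative to the bulk of genes, the level in Spt5-AA differed from that in Spt4-AA for 29 of 30 genes. These 30 had the largest rises, the largest falls or the highest level among persistent genes. Levels are compared here, and the response of each strain from its own DMSO library was not tested. The difference of Spt5-AA minus Spt4-AA was tested directly with edgeR on recovered reads, with TMM scaling and adjustment over 4673 genes, and is given on the log2 scale. Over all genes, 17.1% were called higher and 19.0% lower in this comparison. Because these genes were chosen by their change in Spt5-AA, a difference in that direction was favoured by the choice. Among rises it was 6.38 for *HSP12*, 3.83 for *TMA10*, 2.59 for *GAD1*, 3.83 for *HSP42*, 3.17 for *GLC3*, 3.13 for *STF2*, 1.58 for *HOR7*, 2.64 for *GLK1*, 2.63 for *DAL3* and 1.17 for *SER3*. For *SER3* the direction turns with the scaling, since its change as deposited was 2.46 in Spt5-AA and 2.85 in Spt4-AA. Among persistent genes it was 1.41 for *ADH1*, 1.40 for *FBA1*, 1.28 for *RPL41B*, 1.38 for *GPM1*, 1.41 for *NNR2*, 1.49 for *TDH3*, 1.15 for *TPI1*, 1.16 for *TEF2*, 1.01 for *YDR154C* and 1.01 for *CPR1*. These 10 differences also turn with the scaling, since as deposited each of the 10 was lower in Spt5-AA than in Spt4-AA relative to DMSO, with -0.49 and -0.30 for *ADH1*, -0.67 and -0.36 for *RPL41B* and -0.53 and 0.04 for *CPR1*. Among falls it was -2.20 for *RPS28B*, -1.72 for *DSE2*, -1.29 for *HPT1*, -1.68 for *RPS23A*, -1.46 for *EGT2*, -1.64 for *DSE1*, -1.94 for *RPS16B*, -1.997 for *HO* and -1.06 for *SUN4*. *PHM6* did not pass the test, at -0.57 (adjusted p = 0.186 from edgeR). Strain, duration of rapamycin and tagged protein differ together and cannot be told apart.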

How the results depend on the processing

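Counts of called genes kept their direction split to within 10 percentage points under every alternative of the same scale. For this the same total was set beside the values relative to the median gene. The split does differ between scales, with 111 of 4351 called genes higher as deposited and 1382 of 2501 with the same total. On the deposited scale 2597 of 2650 genes were called with a minimum mean of 100, where fewer genes are tested, and the median gene stood at -2.09 with that minimum, -1.61 with a pseudocount of 10 and 0.11 with the same total, which removes the overall fall by construction. Leaving out each library gave between 4144 and 4347 calls as deposited and between 1884 and 2732 relative to the median gene, with 4200 and 1935 when the Spt5-FRB strain alone stood for DMSO. For Spt5-AA against Spt4-AA the count ranged from 840 to 2184 when a library was left out, and the cause was not tested. A group left with 1 library is assumed to vary like the other. DESeq2 called 4145 genes as deposited, 1943 relative to the median gene and 1335 against Spt4-AA. No paired analysis was possible because the DMSO libraries carry no replicate number.

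Of 93 named genes, 945 of 1012 values relative to the median gene and 885 of 919 as deposited kept their direction and their side of the threshold. Those that turned in sign were near 0 and did not pass the test on that side. With a minimum mean of 100 they were *RPB2* (0.11), *MRP13* (0.073), *ATP4* (0.12), *RPN8* (0.19) and *GAS1* (0.16) relative to the median gene, with the same total *RPN8* (0.062) and *GAS1* (0.025), and with no minimum *RPL10* (-0.017) and *STE2* (-0.014). With a library left out, values ranged from -0.23 to 0.23 for *RPL10*, -0.25 to 0.18 for *RPN8*, -0.0054 to 0.38 for *RPB3* and -0.22 to 0.22 for *STE2*, and as deposited from -0.14 to 0.77 for *MRPL25*, -0.0025 to 0.86 for *EDC2* and -0.19 to 0.14 for *MFA1*. Among list medians, those of elongation and chromatin factors and of general transcription factors turned sign, with lowest values of -0.06 and -0.05. The Spt5-AA libraries had fewer reads on these genes, which limits what can be said of genes near the minimum.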

Other observations

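Single phosphate genes were looked up after *PHM6* was seen among the largest falls, and 90.7% of all genes fell. *PHO84*, the high-affinity phosphate carrier, had 1062 and 1025 normalized counts in DMSO and 56.8 and 105 in Spt5-AA, or -1.87 on the log2 scale relative to the median gene. The second carrier gene *PHO89* had 127 and 222 against 12.7 and 11.02, and the regulator gene *SPL2* had 138 and 188 against 13.6 and 8.57. *VTC3*, a subunit of the polyphosphate synthase of the vacuole, had 6503 and 8165 against 559 and 502, and *VTC1* and *VTC4* were 1.41 and 1.33 lower than the median gene. The acid phosphatase gene *PHO5* stood 0.63 above the median gene, and *PHM8*, a nucleotide phosphatase, rose from 96.8 and 102 to 399 and 297.

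Purine genes were uneven. *APT1*, the adenine salvage enzyme, had 2981 and 3061 normalized counts in DMSO and 240 and 175 in Spt5-AA, and *AAH1*, adenine deaminase, had 898 and 1061 against 66.2 and 64.9. *ADE4*, which starts the synthesis of purines, had 1891 and 2183 against 186 and 164. *ADE2* and *IMD2* did not pass the test as deposited, with 162 and 174 against 150.2 and 139 for *ADE2*, and 212 and 190 against 188 and 183 for *IMD2*.

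Single genes of redox balance and of DNA precursors had both rises and falls, where 2.38% of all genes rose and 90.7% fell. *TSA1*, the main peroxiredoxin of the cytoplasm, had 1390 and 1663 normalized counts in DMSO and 2534 and 3067 in Spt5-AA, and the mitochondrial *PRX1* had 66.4 and 78.6 against 190.1 and 235. *AHP1*, *TRX2* and *SOD1* did not pass the test as deposited, at 0.27, 0.17 and -0.08 on the log2 scale. The thioredoxin reductase gene *TRR1* went the other way, from 1807 and 2050 to 290.2 and 334, as did the peroxidase gene *GPX2*, from 982 and 1094 to 162 and 131, and the catalase gene *CTA1*, which fell by 1.02. The ribonucleotide reductase genes *RNR2* and *RNR4* were at -0.07 and 0.11 without passing the test. *RNR1* fell by 0.92 as deposited but stood 0.96 above the median gene, and *POL30*, the sliding clamp of replication, rose by 0.76. Of sulfate assimilation and methionine synthesis, *MET10*, *MET6* and *MET14* rose by 1.49, 0.60 and 0.51, and *MET3* had 102 and 122 against 79.8 and 108. All of these genes were chosen after the values were seen.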
